A study of Mus musculus with 4 samples.

Results

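The NR4A and EGR transcription factors were followed through 4 expression arrays of mouse cells labelled as ILC3s (group 3 innate lymphoid cells), which are lymphocytes of barrier tissues that lack rearranged antigen receptors. The set was chosen by gene symbol and holds 6 of the 19504 named genes of the deposited table, namely the NR4A genes Nr4a1, Nr4a2 and Nr4a3 and the EGR genes Egr1, Egr2 and Egr3. Egr3 had 3 entries in the table, of which the brightest on average over the 4 arrays was taken, and each other gene had 1. The arrays came from circZbtb20-/- mice, which lack a circular RNA of the Zbtb20 gene, from circZbtb20+/+ mice, from Nr4a1-/- mice and from Nr4a1+/+ mice. Each genotype had 1 array. According to the labels, all cells were sorted as CD90 high, CD45 low and lineage negative. The tissue, age, strain and number of mice, the allele of each knockout and the antigens of the lineage stain are not named in those labels. No treatment is named for any group. Differences were taken between each knockout and the wild type of its own name, between each knockout and the other wild type, and between both wild types. These comparisons share arrays. With 1 array for each genotype, a difference has no replicate check.

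NR4A proteins are orphan nuclear receptors whose ligand pocket is closed, so that their activity follows their amount. EGR proteins are zinc finger factors that bind GC-rich DNA. Both families belong to the immediate-early genes, which lymphocytes switch on within minutes of stimulation through ERK kinase, serum response factor, CREB and calcium signals, and in T cells both are known as brakes on activation.

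The values are on a log2 scale, on which 1 unit is a doubling of the deposited value and need not be a doubling of RNA. The array medians over all entries lay between 4.34 and 4.51. Between 3 and 25 entries of each array shared the highest value of the table, 19.93, which was treated as a ceiling. A difference from a value at the ceiling is therefore a bound. A gene was called higher or lower where the log2 difference was at least 1 and the higher value reached the median of its array, and pairs in which both values were at the ceiling were left out. In bulk samples such as these, fewer cells of a type and less RNA per cell cannot be told apart.

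The array labelled Nr4a1 knockout went against its cell type label. The median of 12 measured ILC3 markers was 5.42 there, against 15.39 in the Nr4a1 wild type, and the receptor genes Kit, Il23r and Ncr1 stood at 5.48, 4.73 and 3.0. Other genes of that list were high on the same array, with the cytokine gene Il22 at the ceiling as in both wild types, Id2 at 15.48 against 18.89 in the Nr4a1 wild type, and Il7r at 13.40 against 16.38. The median of 12 T cell markers was 16.75 on the same array, against 6.18 in its wild type, and all 12 lay between 13.27 and 18.92. The median of 6 thymocyte markers was 10.94, against 3.98 in the Nr4a1 wild type. On the circZbtb20 knockout array the ILC3 list had a median of 16.94, against 15.74 in the circZbtb20 wild type, and the T cell list 5.39, against 4.74. Both wild types carried more signal of ILC2, NK and acinar pancreas markers than their knockouts, with acinar medians of 4.36 in circZbtb20 knockout cells against 11.79 in their wild type, and 4.16 in Nr4a1 knockout cells against 8.09 in their wild type. The gut epithelium list had a median of 6.46 in circZbtb20 knockout cells against 5.68 in their wild type, and 4.39 in Nr4a1 knockout cells against 8.45 in their wild type, where all 9 genes were lower in the knockout. Of these 9 genes, 8 were higher in the Nr4a1 wild type than in the circZbtb20 wild type, and 8 were lower in the circZbtb20 knockout than in the Nr4a1 wild type. The macrophage and dendritic list had medians of 5.22 against 5.88 and 4.95 against 6.99 in the same order. The median of the B cell list lay under every array median, between 3.53 and 3.96, though 2 or 3 of its 7 genes reached the array median. The part of these differences in the values below was not tested, and since each genotype has 1 array, no value of the Nr4a1 knockout can be given without that array.

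**Figure D1:**
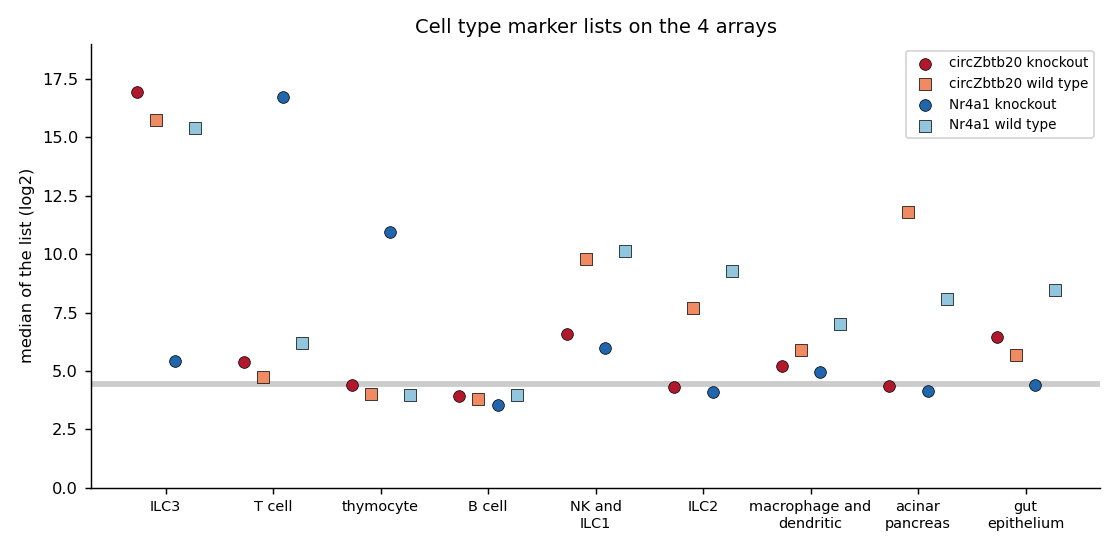
Median log2 expression value (vertical axis) of 9 lists of cell type markers (horizontal axis) on the 4 arrays, with the array medians over all entries as a grey band. The array labelled Nr4a1 knockout has the lowest ILC3 median, 5.42, and the highest T cell and thymocyte medians, 16.75 and 10.94.

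The promoters of the NR4A genes, which differed together, and of Egr2, which went the other way in the Nr4a1 knockout, are given here so that the values can be read beside the sequence in front of each gene. RefSeq promoters on build GRCm38.p6 matched 4 of the 6 genes, in 8 windows of 250 bases before an annotated start. They are written 5′ to 3′ in the direction of the gene. Capitals mark TGACG on either strand, which reads CGTCA where it lies on the opposite one and is the core of the cAMP response element bound by CREB, and the CArG box, bound by serum response factor. Nr4a1 is shown from chr15:101266596-101266845 on the plus strand, Nr4a2 from chr2:57124004-57124253 on the minus strand and Nr4a3 from chr4:48045055-48045304 on the plus strand. Of 5 starts of Egr2, the window chr10:67537620-67537869 on the plus strand is shown, 1 of 3 overlapping windows that hold both marked motifs.
Nr4a1: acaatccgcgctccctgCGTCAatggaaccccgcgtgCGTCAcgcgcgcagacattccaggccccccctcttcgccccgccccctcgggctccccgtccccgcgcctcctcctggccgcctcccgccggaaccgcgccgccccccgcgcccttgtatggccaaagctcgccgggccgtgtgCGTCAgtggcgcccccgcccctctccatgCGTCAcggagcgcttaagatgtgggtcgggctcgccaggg
Nr4a2: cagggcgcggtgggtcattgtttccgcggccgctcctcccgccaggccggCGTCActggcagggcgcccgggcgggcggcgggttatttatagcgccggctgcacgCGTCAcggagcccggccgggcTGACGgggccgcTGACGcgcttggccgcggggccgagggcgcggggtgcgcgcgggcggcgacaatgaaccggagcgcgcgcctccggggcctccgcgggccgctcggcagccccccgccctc
Nr4a3: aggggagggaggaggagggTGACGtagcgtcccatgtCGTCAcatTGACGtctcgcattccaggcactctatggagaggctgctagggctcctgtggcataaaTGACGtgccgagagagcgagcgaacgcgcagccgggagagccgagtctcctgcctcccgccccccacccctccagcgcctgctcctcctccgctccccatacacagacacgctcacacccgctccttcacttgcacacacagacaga
Egr2: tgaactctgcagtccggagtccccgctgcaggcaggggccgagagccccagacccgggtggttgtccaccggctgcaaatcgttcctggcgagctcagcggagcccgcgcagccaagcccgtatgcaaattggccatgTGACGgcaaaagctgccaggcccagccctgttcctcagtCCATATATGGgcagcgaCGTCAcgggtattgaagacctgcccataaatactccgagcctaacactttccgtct

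Each of the 3 NR4A windows held 4 matches of TGACG, counted on both strands. Of all 32851 promoter windows of this length, 17.8% held at least 1 match and 0.137% held at least 4, which is 45 windows. The cut of 4 was not planned and equals the count in the NR4A windows, which are among the 45. In Nr4a1 the matches began 233, 213, 69 and 40 bases before the start. In Nr4a2 they began 200, 144, 123 and 111 bases before it, and in Nr4a3 231, 213, 205 and 147 bases before it. The Egr2 window held 2 TGACG matches, 112 and 56 bases before the start, on either side of a CArG box at 73 to 64 bases. An exact CArG box, in which only A and T lie between CC and GG, was found in 1.47% of all windows. It was in no NR4A window and in 4 of the 5 Egr2 windows, of which 3 overlap and hold the same match. Near matches were not searched for, and the Nr4a1 window holds ccttgtatgg, which differs from that pattern by 1 letter.

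The binding sequence of EGR proteins, GCGNGGGCG, was found once in Nr4a1, at 60 to 52 bases, and once in Nr4a2, at 74 to 66 bases, against 4.7% of all windows. TATAAA, present in 12.4% of windows, was found in Nr4a2 at 164 to 159 bases. Neither AAAGGTCA, the sequence that a single NR4A protein binds, nor the full element TGACGTCA, which holds TGACG on both strands, was in any of the 8 windows, and they were found in 1.34% and 1.55% of all windows. The windows were 61.2% to 80.0% G and C in the 4 sequences shown, and the shares over all windows were not adjusted for base composition. Each match is a description of letters, not of binding.

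**Figure D2:**
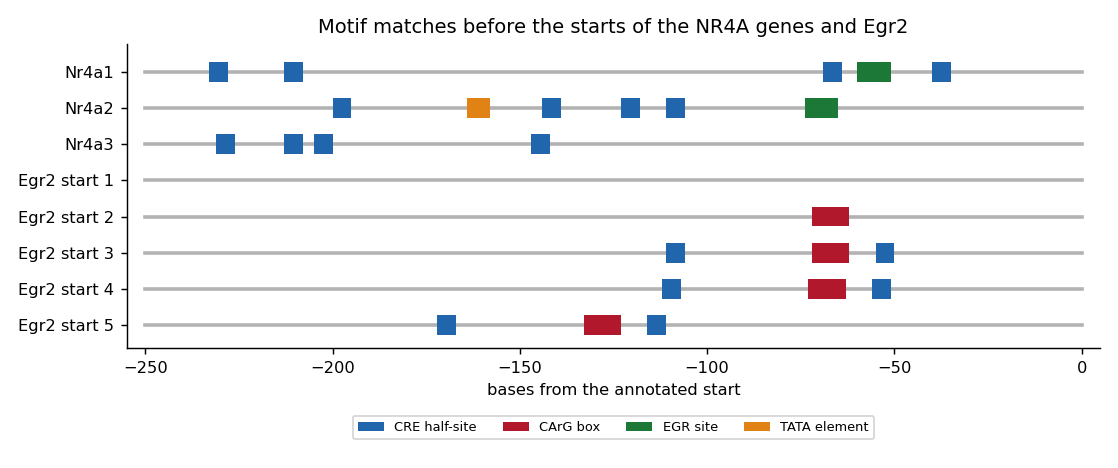
Motif matches (boxes) in the 250 bases before each annotated start of the NR4A genes and of Egr2, with the distance to the start in bases on the horizontal axis and 1 line for each start. The 3 NR4A genes each carry 4 matches of TGACG, labelled CRE half-site, without the full element TGACGTCA. They carry no exact CArG box, and 4 of 5 Egr2 starts carry one.

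Nr4a1, also called Nur77, is the targeted gene of 1 knockout and is read first. It had 15.98 in circZbtb20 knockout cells against 19.93 in their wild type, and 11.63 in Nr4a1 knockout cells against 18.11 in their wild type. The Nr4a1 knockout was the lowest of the 4 arrays, the circZbtb20 knockout the next lowest, and both wild types were above them. The log2 difference between the Nr4a1 knockout and its wild type was -6.48. The signal that remained at 11.63 was above the array median of 4.34. The deleted part of the gene and the place of the probes are not known here. Against the same wild type, Nr4a2 was at -7.81 and Nr4a3 at -7.36, although the knockout is named for neither. As low as Nr4a1 or lower were 161 genes, or 1.44%. A low value on this array is therefore not particular to the targeted gene, and it cannot check the knockout label.

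Nr4a2, or Nurr1, is known from dopamine neurons and acts beside Nr4a1 in lymphocytes. It had 12.04 in circZbtb20 knockout cells against 13.92 in their wild type, and 6.82 in Nr4a1 knockout cells against 14.63 in their wild type. Nr4a3, or NOR1, the last of the family, had 16.20 in circZbtb20 knockout cells against 19.93 in their wild type, and 12.54 in Nr4a1 knockout cells against 19.90 in their wild type. Both genes therefore kept the order of Nr4a1, with the Nr4a1 knockout lowest, the circZbtb20 knockout next and both wild types above.

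All 3 NR4A genes were lower in the circZbtb20 knockout than in either wild type. Against its own wild type the log2 differences were -3.95 for Nr4a1 and -3.73 for Nr4a3, both bounds because the wild type was at the ceiling, and -1.88 for Nr4a2. Against the Nr4a1 wild type they were -2.13, -3.70 and -2.59 in the order Nr4a1, Nr4a3 and Nr4a2. With the EGR genes, 4 of the 6 genes were lower and 0 higher than in the circZbtb20 wild type, where 19.4% of 11122 genes were lower and 27.3% higher. The same counts, 4 and 0, were found against the Nr4a1 wild type, where 21.0% of 11154 genes were lower and 26.4% higher. The median over the 6 genes was -2.80 against the circZbtb20 wild type and -2.36 against the other, beside 0.17 and 0.11 over all genes. A call of this size was thus common on this array.

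The rank of a difference says more than the call, and it was read only where neither value compared was at the ceiling. Against the circZbtb20 wild type 861 genes, or 7.74%, were as low as Nr4a2 or lower. Against the Nr4a1 wild type 769 genes, or 6.89%, lay as low as Nr4a1, and 494 genes, or 4.43%, as low as Nr4a2. As low as Nr4a3 or lower were 183 genes, or 1.64%.

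All 3 NR4A genes were also lower in the Nr4a1 knockout, with greater differences. Against the Nr4a1 wild type the log2 differences were -7.81 for Nr4a2 and -7.36 for Nr4a3, neither of which was targeted. Against the circZbtb20 wild type they were -7.10 for Nr4a2 and -7.39 for Nr4a3, with Nr4a1 itself at -8.30, and the values of Nr4a1 and Nr4a3 are bounds. Of the 6 genes 4 were lower and 2 higher than in the Nr4a1 wild type, where 20.8% of 11191 genes were lower and 31.9% higher. Against the circZbtb20 wild type 3 were lower and 1 higher, where 20.4% of 11195 genes were lower and 32.8% higher. The medians over the 6 genes were -4.27 and -3.96, beside 0.29 and 0.30 over all genes. As low as Nr4a2 or lower against the Nr4a1 wild type were 102 genes, or 0.911%, and as low as Nr4a3 120 genes, or 1.07%. These are values of the array on which ILC3 markers were low and T cell markers high, as given above.

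**Figure D3:**
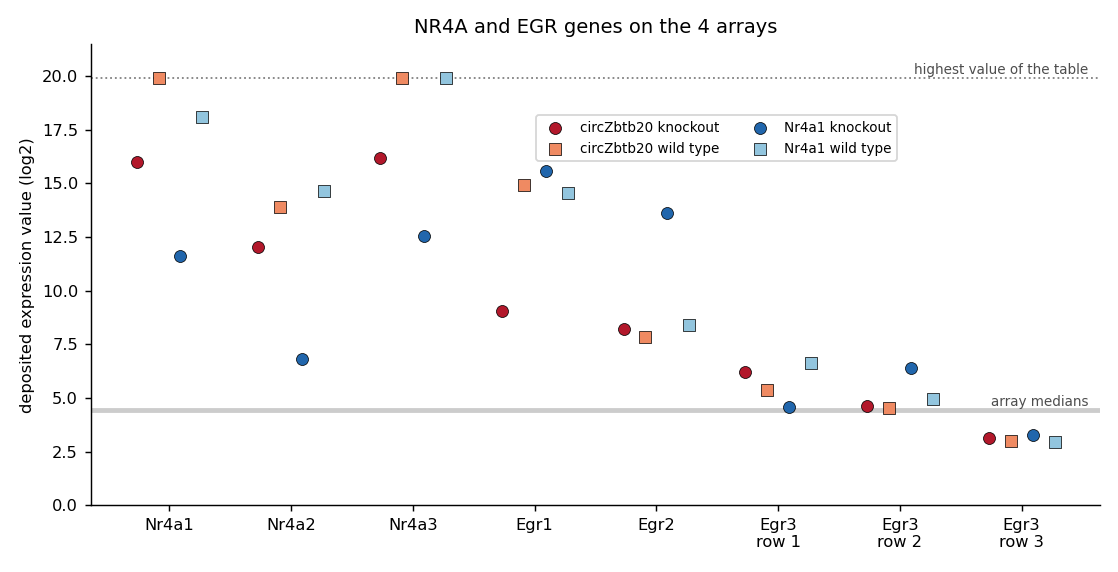
Deposited log2 expression value (vertical axis) of the NR4A and EGR genes on the 4 arrays, with knockouts as circles, wild types as squares, the highest value of the table as a dotted line and the array medians as a grey band. Both knockouts lie below both wild types for Nr4a1, Nr4a2 and Nr4a3, the circZbtb20 knockout alone is low for Egr1 at 9.07, and the Nr4a1 knockout alone is high for Egr2 at 13.61.

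Egr1, the best studied EGR factor and a common readout of ERK signalling, had 9.07 in circZbtb20 knockout cells against 14.93 in their wild type, and 15.57 in Nr4a1 knockout cells against 14.54 in their wild type. The circZbtb20 knockout stood apart from the other 3 arrays, which lay within 14.54 to 15.57. Its log2 differences were -5.86 from its own wild type and -5.47 from the Nr4a1 wild type. Only 41 genes, or 0.369%, lay as low or lower against its own wild type, and 50, or 0.448%, against the other. In the Nr4a1 knockout the log2 difference was 1.03 from its own wild type, where 31.3% of genes lay as high or higher, and 0.64 from the other wild type, under the size of 1. Whether the difference of Egr1 itself differed between the knockouts was not tested.

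Egr2, which with Egr3 restrains T cells after antigen contact and is needed by NKT cells, had 8.20 in circZbtb20 knockout cells against 7.83 in their wild type, and 13.61 in Nr4a1 knockout cells against 8.42 in their wild type. The Nr4a1 knockout alone was high, and the other 3 arrays lay within 7.83 to 8.42. Its log2 differences in the Nr4a1 knockout were 5.19 from its own wild type and 5.78 from the circZbtb20 wild type. As high or higher were 123 genes, or 1.1%, in the comparison with its own wild type. In the circZbtb20 knockout the log2 differences were 0.37 and -0.22, under the size of 1 against either wild type.

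The direction of Egr3 depended on the entry read. The brightest entry had 6.23 in circZbtb20 knockout cells against 5.38 in their wild type, and 4.57 in Nr4a1 knockout cells against 6.63 in their wild type. The next entry had 4.65 in circZbtb20 knockout cells against 4.56 in their wild type, and 6.40 in Nr4a1 knockout cells against 4.94 in their wild type. The last entry lay under every array median, between 2.94 and 3.29. In the Nr4a1 knockout the brightest entry thus gave a log2 difference of -2.06 from its own wild type and the next entry one of 1.46, and against the circZbtb20 wild type they gave -0.81 and 1.84. No direction is therefore given for Egr3, though the counts above hold its brightest entry. In the circZbtb20 knockout no entry reached a size of 1, with log2 differences of 0.85, 0.09 and 0.18 from its own wild type.

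The wild types differed less from each other. From the Nr4a1 wild type minus the circZbtb20 wild type, 1 of the 6 genes was lower and 1 higher, where 6.77% of 10691 genes were lower and 8.48% higher. Nr4a1 differed by -1.82, a bound. Egr3 differed by 1.25 in its brightest entry, and Nr4a2, Nr4a3, Egr1 and Egr2 by 0.71, -0.03, -0.39 and 0.59. The gap of Nr4a1 between the wild types was close to the difference of -2.13 between the circZbtb20 knockout and the Nr4a1 wild type.

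**Figure D4:**
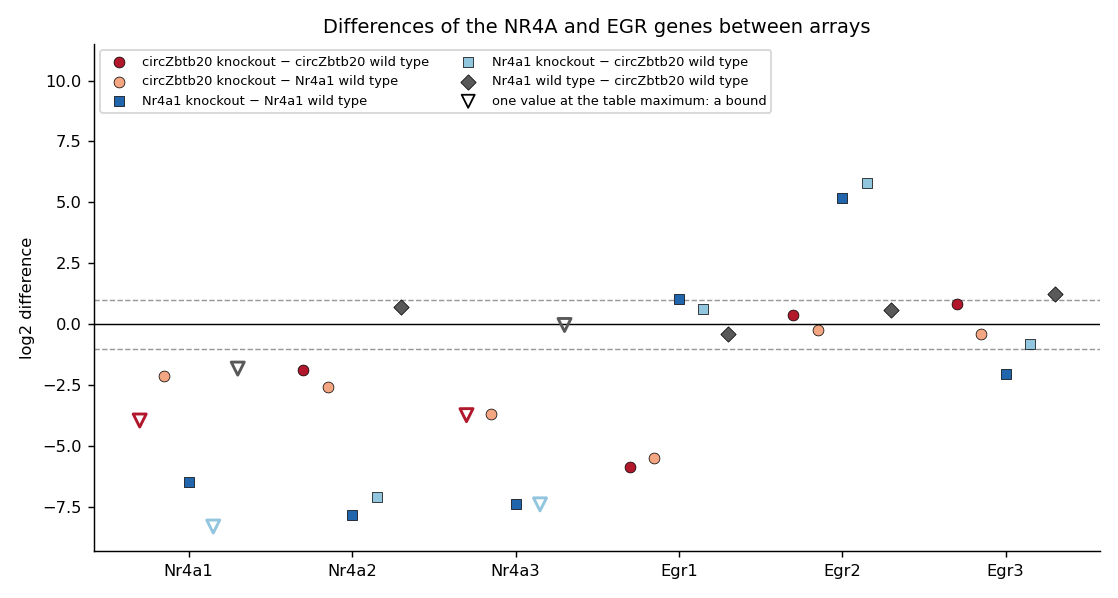
Log2 difference between arrays (vertical axis) for each NR4A and EGR gene (horizontal axis) in the 5 comparisons, with dashed lines at the size of 1 and open triangles where a value at the ceiling makes the difference a bound. The NR4A genes lie between -8.30 and -1.88 in every knockout comparison, and Egr2 lies at 5.19 and 5.78 in the Nr4a1 knockout.

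The test that was made took both wild types as 1 group of 2 arrays and fitted limma to 12232 genes. It had 1 residual degree of freedom, assumed that each single knockout varies like the wild types, and treated mice of different names as replicates. In the circZbtb20 knockout 2 of the 6 genes were lower after Benjamini-Hochberg adjustment, against 4.73% of all genes. These were Egr1, with a log2 difference of -5.66 ± 0.44 (SE) and an adjusted p of 0.0196 in limma, and Nr4a3, with -3.72 ± 0.42 and 0.0203. Nr4a2, with -2.24 ± 0.50 and an adjusted p of 0.0518 in limma, and Nr4a1, with -3.04 ± 0.83 and 0.0769, did not pass. Fitted to all 19504 genes, limma passed no gene in the circZbtb20 knockout. Egr1 and Nr4a3 did not pass there either, with their log2 differences unchanged at -5.66 and -3.72.

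In the Nr4a1 knockout the same limma fit called 3 of the 6 genes lower, against 8.49% of all genes, and 1 higher, against 15.3%. Nr4a1, Nr4a2 and Nr4a3 had log2 differences of -7.39 ± 0.83, -7.46 ± 0.50 and -7.38 ± 0.42 (SE), with adjusted p of 0.00769, 0.00309 and 0.00225 in limma. Egr2 had 5.48 ± 0.48 with an adjusted p of 0.00504 in limma. Egr1 and Egr3 did not pass, with adjusted p of 0.235 and 0.174. All 4 calls held over all 19504 genes, with adjusted p between 0.0154 and 0.0321 in limma. Nr4a3 was at 19.90 and 19.93 in the wild types and Nr4a1 at 18.11 and 19.93, so the spread and the differences that limma took for both genes rest on a value at the ceiling.

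The other immediate-early genes show what the rest of this fast response did on the same arrays. The shares and medians over all genes given above are the background for this list and those that follow. That background holds only genes past the filter on low values, while the lists hold every measured gene, so their bases are not the same. Of 36 such genes, 10 were lower and 11 higher in circZbtb20 knockout cells than in their wild type, with a median log2 difference of -0.10, and 18 were lower and 4 higher than in the Nr4a1 wild type, with a median of -1.16. Lower against either wild type were Zfp36, which destabilises cytokine mRNAs, at -5.56 and -7.50, Mcl1, a survival factor of the Bcl2 family, at -3.94 and -5.66, Ier3 at -3.08 and -2.97, and the growth regulator Myc at -2.63 and -5.44, each with the circZbtb20 wild type first. The difference of Egr1 was below that of all 36 genes against the circZbtb20 wild type, at -5.86, but not against the Nr4a1 wild type, where Egr1 was at -5.47 and Zfp36 and Mcl1 lay lower. Between the wild types 14 of the 36 genes were higher and 0 lower in the Nr4a1 wild type, the array with the higher gut epithelium median, and the part of that in these counts was not tested.

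In the Nr4a1 knockout 28 of the 36 genes were lower and 2 higher against either wild type, with medians of -4.86 and -3.60. Against the Nr4a1 wild type the AP-1 subunits Fosb and Fosl2 differed by -11.18 and -8.80, the G protein regulator Rgs1 by -10.10 and the stress gene Gadd45b by -9.60. The higher ones were Mcl1, at 2.65 and 4.37, and the ERK phosphatase gene Dusp2, at 2.53 and 3.10, of which Dusp2 was named after its values were seen. The NR4A genes thus lay among many genes that were lower on this array, while Egr2 lay above all 36. The low ILC3 markers and high T cell markers given above belong to the same array, and their part in these counts was not tested.

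**Figure D5:**
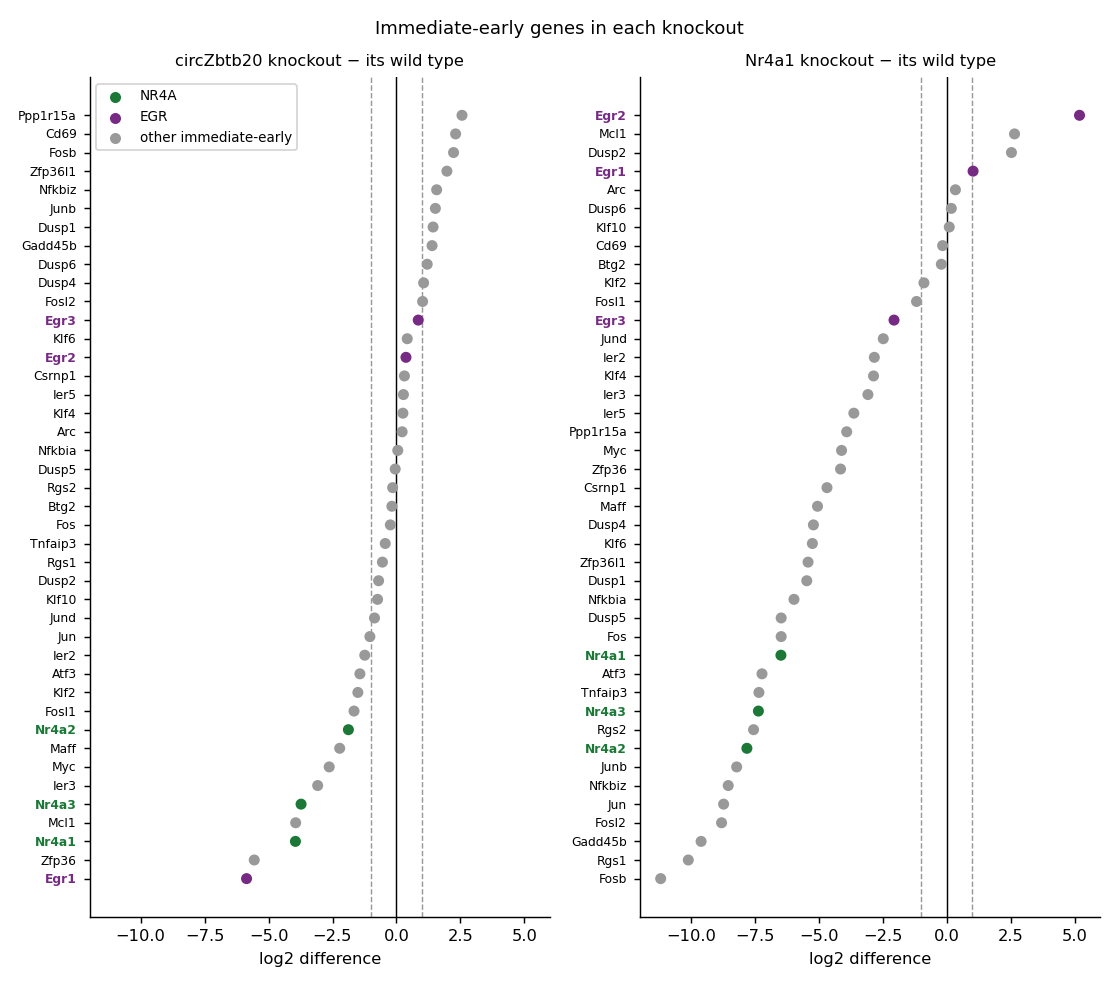
Log2 difference between each knockout and its own wild type (horizontal axis) for the NR4A genes in green, the EGR genes in purple and 36 other immediate-early genes in grey, sorted from high to low, with dashed lines at the size of 1. In the circZbtb20 knockout the other genes spread to both sides and Egr1 is the lowest of all at -5.86, and in the Nr4a1 knockout 28 of 36 are lower while Egr2 is the highest at 5.19.

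The EGR proteins act with the NAB co-repressors, which bind EGR1, EGR2 and EGR3 and damp them. Nab2, itself induced by EGR proteins, had 6.0 in circZbtb20 knockout cells against 6.16 in their wild type, and 11.28 in Nr4a1 knockout cells against 6.96 in their wild type. It was higher in the Nr4a1 knockout by 4.32 and 5.12 against its own and the other wild type. Egr2 and the T cell markers were both high on that array, and the part of either in the value of Nab2 was not tested. Nab1 had 10.93 in circZbtb20 knockout cells against 10.52 in their wild type, and 7.89 in Nr4a1 knockout cells against 9.48 in their wild type. It was lower in the Nr4a1 knockout, at -1.59 and -2.63. Egr4, the fourth EGR gene, lay near the array medians throughout, between 4.15 and 4.99.

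Among the retinoid X receptors, which pair with NR4A1 and NR4A2 on DNA, Rxra was lower in both knockouts. It had 5.09 in circZbtb20 knockout cells against 7.75 in their wild type, and 5.81 in Nr4a1 knockout cells against 7.04 in their wild type. Rxrb had 4.95 in circZbtb20 knockout cells against 5.12 in their wild type, and was higher in the Nr4a1 knockout, with 6.71 against 4.90. Rxrg was at or under the array medians on all arrays, between 3.27 and 4.33.

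Of the factors that switch these genes on, 10 of 14 listed members of the serum response factor and ERK route were measured. Of these, in circZbtb20 knockout cells, 4 were lower and 3 higher than in its wild type, with a median of -0.42, and 3 were lower and 3 higher than in the Nr4a1 wild type, with a median of -0.30. The ternary complex factor Elk4 differed by -1.87 and -2.95, the actin-responsive cofactors Mrtfb by -2.63 and -2.43 and Mrtfa by 2.30 and 2.71, and the kinase Map2k1 by 2.36 and 1.46. On the Nr4a1 knockout array 6 were higher and 1 lower than in its wild type, with a median of 1.81, and 6 were higher and 2 lower than in the other, with a median of 1.58. Srf itself had 9.38 there against 6.47 in its wild type, Elk4 differed by 3.48 and 4.56 and Mrtfb by 3.0 and 2.80, and the kinase Braf was lower, at -2.67 and -3.05.

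The CREB route had 9 of 10 listed genes measured. Of these, in circZbtb20 knockout cells, 2 were lower and 2 higher than in its wild type, and 3 were lower and 2 higher than in the other, with medians of -0.13 and -0.24. The CREB relative Atf1 differed by 1.77 against either wild type, the protein kinase A subunit Prkacb by 2.45 and 1.47, and the acetyltransferase Ep300 by -1.07 and -2.18. Nr4a1 knockout cells had 6 of the 9 genes higher and 1 lower against either wild type, with medians of 1.77 and 1.89. The coactivator Crtc1 differed by 2.09 and 2.90 and Atf1 by 1.97 against either wild type, Prkaca, a protein kinase A subunit, by 2.28 and 1.89, and the coactivator Crtc2 by -2.76 and -2.26.

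The calcium route acts on Nr4a1 through MEF2 proteins, which class IIa histone deacetylases such as HDAC7 hold silent, and on EGR2 and EGR3 through NFAT. Of 15 listed genes 14 were measured. Of these, in circZbtb20 knockout cells, 4 were lower and 2 higher than in its wild type, and 5 were lower and 3 higher than in the other, with medians of -0.29 and -0.12. Mef2d, one of the MEF2 factors, had 9.02 there against 11.36 in its wild type, Nfatc1 had 8.72 against 10.92, the calcineurin subunit Ppp3ca had 12.40 against 9.69, and the calcineurin inhibitor Rcan1 had 8.33 against 6.40. On the Nr4a1 knockout array 5 were higher and 4 lower than in its wild type, and 7 were higher and 4 lower than in the other, with medians of 0.50 and 0.78. Hdac7 had 12.08 there against 7.15 in its wild type, the calcineurin subunit Ppp3cb 16.06 against 11.15, the calcium kinase Camk4 9.42 against 6.34, and Mef2c was lower, with 4.74 against 8.61. The high T cell and thymocyte markers given above belong to the same array. Their part in its values for the serum response factor, CREB and calcium routes was not tested, nor was any link of Hdac7 to Nr4a1.

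Of 15 genes that NR4A factors are reported to control in T cells, 14 were measured. Of these, in circZbtb20 knockout cells, 8 were lower and 2 higher against either wild type, with medians of -1.44 and -1.63. Lower were Pdcd1, which encodes the inhibitory receptor PD-1, with 8.54 against 13.44 in its wild type, and Bcl2l11, which encodes the death factor BIM, with 8.42 against 11.78. Higher were the AP-1 partner Batf, with 13.83 against 9.05, and Tox, a factor of exhausted T cells, with 13.40 against 10.81. The list was thus lower more often than higher, with 2 genes past the size in the other direction, and this was not tested. It records no direction of control for its genes, so counts over it do not measure NR4A activity. Its roles are known from T cells, not from ILC3s.

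On the Nr4a1 knockout array 11 of these 14 genes were lower and 1 higher than in its wild type, and 10 were lower and 1 higher than in the other, with medians of -2.00 and -1.41. Bhlhe40, a repressor of cytokine genes, had 8.42 there against 18.79 in its wild type, the inhibitory receptor gene Ctla4 had 5.12 against 11.49, and Pdcd1 had 9.63 against 13.73. The 1 gene that was higher was Tox, with 16.42 against 12.04, and Tox is also expressed in thymocytes. Between the wild types 4 genes were higher and 0 lower in the Nr4a1 wild type.

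All 17 genes reported to depend on EGR2 or EGR3 in T cells were measured. Of these, in circZbtb20 knockout cells, 5 were lower and 6 higher than in its wild type, and 6 and 6 than in the other, with medians of -0.02 and 0.05. Dgka, a lipid kinase that blunts receptor signals, had 11.64 against 9.54 in its wild type, while the cytokine signal inhibitors Socs1 and Socs3 had 4.36 against 6.51 and 3.45 against 5.32, and the adhesion gene Sema7a had 5.03 against 6.85. On the Nr4a1 knockout array Egr2 and the T cell markers were high, and their part in the following counts was not tested. Of the 17 genes 9 were lower there and 5 higher against either wild type, with medians of -1.27 and -1.14. Dgka had 15.42 there against 10.22 in its wild type and Id3, an inhibitor of E proteins in thymocytes, had 8.10 against 4.48. The cell cycle inhibitor Cdkn1a had 4.19 against 15.93, and the costimulatory receptor gene Tnfrsf9 had 8.31 against 12.99.

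For each of the 6 genes the 3 genes of nearest pattern were taken, by the root mean square distance between gene-centred log2 values over the 4 arrays, among 11746 genes never at the ceiling. Nr4a1 and Nr4a3 themselves were at the ceiling in the circZbtb20 wild type, so their distances rest on a truncated value. Nearest to Nr4a1 were Prelp at 0.41, Niban1 at 0.43 and Gzmb, which encodes granzyme B, at 0.54. Nr4a2 had Plscr1 at 0.28, the stress factor Atf3 at 0.31 and the kinase gene Pim1 at 0.38. Atf3, which is also one of the immediate-early genes above, had 12.04 in circZbtb20 knockout cells against 13.47 in their wild type, and 6.57 in Nr4a1 knockout cells against 13.79 in their wild type. Nr4a3 had Fcer1g at 0.42, Cxcl10, an interferon-induced chemokine, at 0.47, and again Niban1, at 0.55.

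Egr1 had Rnf169 at 0.37, the tropomyosin gene Tpm3 at 0.38 and the ribosomal protein gene Rpl10a at 0.39, none of them an immediate-early gene of the list. Nearest to Egr2 were Tmem131l at 0.14, Slamf1, a receptor of lymphocytes, at 0.16, and Cbl, a ubiquitin ligase of antigen receptor signalling, at 0.17. Cbl had 9.29 in circZbtb20 knockout cells against 9.0 in their wild type, and 14.63 in Nr4a1 knockout cells against 9.14 in their wild type, the shape of Egr2. The brightest entry of Egr3 had H2-Q10 at 0.05, Stard10 at 0.09 and Mgam at 0.10, at a level where background weighs on the values. Over 4 arrays many genes share a shape, and closeness here is a description.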

How the data were processed

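Total RNA of sorted ILC3s, extracted with Trizol, was biotin labelled and hybridised to 4 Affymetrix arrays, 1 for each genotype, per the labels. The deposited values are log2 expression made by the authors with Affymetrix Power Tools and RMA, per the submitters' processing notes, which correct background, normalise arrays by quantiles and summarise probes. Neither the versions and settings of both tools nor the reason for the ceiling at 19.93, the log2 of 1000000, are given in the sources used here. The number of arrays limits the precision.

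Of 22205 entries, 19571 had 1 gene symbol in the platform's probe table, 2634 had no symbol and 0 had several. The design text names the protocol of a different Affymetrix mouse array than the platform of that table, on which every gene name rests. The RefSeq gene table held all 19504 symbols. Of 55 genes with several entries the one with the highest mean was used. Differences were computed with pandas 2.3.3 under Python 3.11.15 and limma 3.58.1 under R 4.3.3, and limma was tested on simulated data. The alternatives were quantile and cyclic loess normalization, median centring, the next entry of a gene, a size of 2, no filter on low values, the other wild type, the mean of both, and limma. A limma variance trend and a limma fit to all genes were added after seeing the data. The cut on the number of TGACG matches in a promoter window was not planned.

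The genes, the 9 gene lists and the 9 marker lists were chosen with earlier results of these data known. Named were the 6 genes, up to 4 genes of each list with the greatest difference past the size in the same direction against both wild types, all genes of lists of 3, and the 3 nearest patterns of each gene without predicted genes, small RNAs and antigen receptor segments. Promoters of 2 of the 6 genes are not shown. Some listed genes were not analysed here.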

Additional observations from a re-analysis of the deposited data

How the results depend on the processing

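Of 132 values of the 6 genes' log2 differences under the alternatives, 118 moved by less than the SD of the difference between the wild types over all genes, 0.79, and 13 moved by more, of which 4 came with the other wild type. The remaining one, Egr3 in the Nr4a1 knockout, reversed to 1.46 with the gene's next entry. The 132 values are not separate checks. A gene with 1 entry could not change with the next entry. The differences in every limma fit repeat those from the mean of both wild types. Of the 4 genes lower in the circZbtb20 knockout, limma left 2, limma with a variance trend 2 and limma over all genes 0, where more genes were tested, and a size of 2 left 3. Beside testing more genes, limma over all genes estimated the variances anew, and its standard errors changed. With a size of 2, the count of genes lower in the Nr4a1 wild type than in the circZbtb20 wild type was 0 in place of 1. In the circZbtb20 knockout Nr4a1 ranged from -3.96 to -2.13 and Egr1 from -6.24 to -5.47, and in the Nr4a1 knockout Egr2 ranged from 4.68 to 5.78. Over all genes limma called 1658 genes in the circZbtb20 knockout and 2912 in the Nr4a1 knockout after the filter, and 0 and 2180 without it. No paired analysis was possible because, for either knockout alone, 1 pair of arrays leaves no residual error and the columns carry no replicate number. A fit that averages both knockouts, with or without the name as a block, was not run, and no replicate could be left out. Values at the ceiling or near the array medians limit what the differences show.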

Other observations

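Of 22 listed nuclear receptors outside the NR4A family 17 were measured, and 13 passed the filter on low values in each comparison. In circZbtb20 knockout cells 6 were lower and 4 higher than in their wild type, and 4 were lower and 2 higher than in the Nr4a1 wild type. The glucocorticoid receptor gene Nr3c1 had 7.86 in circZbtb20 knockout cells against 9.50 in their wild type, and 6.85 in Nr4a1 knockout cells against 9.84 in their wild type, so both knockouts lay below both wild types. The retinoic acid receptor gene Rara had 6.77 in circZbtb20 knockout cells against 8.53 in their wild type and 10.02 in the Nr4a1 wild type. Nr1h3, which encodes the oxysterol receptor LXR alpha, had 3.45 there against 5.69 in its wild type, and Pparg, the fat cell receptor, had 2.91 against 5.40, with both knockout values under the array median.

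In the Nr4a1 knockout 4 of these 17 genes were lower and 1 higher than in its wild type, and 8 were lower and 2 higher than in the circZbtb20 wild type. Rora, a receptor that innate lymphoid cells need, had 5.59 there against 17.38 in its wild type, a log2 difference of -11.79. The clock repressors Nr1d1 and Nr1d2 had 4.56 against 10.61 and 6.57 against 12.01 in the Nr4a1 wild type. Rora had 18.37 in circZbtb20 knockout cells against 17.43 in their wild type. These values belong to the array on which ILC3 markers were low and T cell markers high, and the part of that in them was not tested.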
